A study of Mus musculus with 33 samples.

Results

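Interscapular brown fat, the heat-producing depot between the shoulder blades, was compared between mice fed a high-fat diet for 24 weeks and mice fed a normal diet for the same time. The comparison uses the 6 arrays whose titles give week 24, 3 for each diet, out of 33 Illumina bead arrays in the series, which read a transcript as the brightness of a probe. The 3 high-fat samples of week 24 came from C57BL/6J mice on the semi-purified AIN-76 diet made up to 39.2 kcal% fat, with 20% fat and 1% cholesterol. The 3 normal diet samples of week 24 came from C57BL/6J mice on the AIN-76 diet alone. Mice of all groups were housed singly at 24 °C under 12-hour light, and the labels carry the same age, 7 weeks, for every sample. The labels number the samples 1 to 3 within a group and do not state that they were separate animals, so the p-values cover the scatter of these samples, which may be technical. The other 27 arrays hold both diets at weeks 2, 4, 8 and 20 and normal diet alone at week 0. A probe stayed in if 3 or more of the 33 arrays gave it a detection p under 0.01, as 17243 of 45281 probes did, and the brightest kept probe stood for each gene.

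Brown adipocytes burn fatty acids and glucose in mitochondria that the uncoupling protein Ucp1 lets run as heaters, and they also make fatty acids from sugar. Around them lie capillaries, nerves, fibroblasts that lay down collagen, and resident macrophages. Long overfeeding with fat is known to enlarge the lipid droplets of the depot and to bring macrophages into adipose tissue, some of which take up lipid and carry the surface receptor Trem2. Cells that receive much cholesterol are known to lower the enzymes that make it.

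All 6 arrays of week 24 stood apart from the rest of the series before any diet difference was taken. Along the leading principal component (35.9% of the variance) the high-fat arrays of week 24 scored 45.2 to 46.7 and the normal diet arrays of week 24 scored 33.5 to 36.2, whereas the 27 other arrays scored -16.8 to 3.9. Their median intensities of 129.5 to 133.1 lay below those of all other arrays, 138.9 to 182.7. Replicates correlated across genes at r of 0.99 to 0.996 within the high-fat group of week 24 and 0.99 to 0.994 within its normal diet group. The labels name no hybridisation batch, so week 24 and whatever the arrays of that week shared cannot be told apart, and diet was compared within the week. The array number limits the precision.

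After 24 weeks of high-fat feeding, genes of macrophages, extracellular matrix, cell division and white fat stood higher in the depot, and genes that make cholesterol and fatty acids stood lower. Of 9630 genes tested, 1960 (20.4%) passed an adjusted p of 0.05 in limma with Benjamini-Hochberg adjustment. Of these, 1224 (12.7% of genes tested) were higher and 736 (7.64%) were lower on high-fat diet. More than 2-fold differences numbered 237 among the higher genes and 48 among the lower ones. The difference of the median gene was 0.01 on the log2 scale. The high-fat and normal diet arrays did not overlap for 1844 of the 1960 genes, against 3617 of all 9630 genes (37.6%). Genes were also counted in 32 lists by cell type or pathway. Below, rose and fell mean higher and lower on high-fat than on normal diet at week 24. Each list's counts are to be read beside the 12.7% of all genes that rose and the 7.64% that fell. Where a list below had 0 called genes in a direction, limma at an unadjusted p of 0.05 gave 0 there too, except 1 gene each of the clock and glycolysis lists (higher) and of the white fat list (lower), and the red blood cell list. A gene detected on fewer than 3 arrays outside the high-fat group of week 24 entered the test only through that group, where it had to be high. There were 209 such genes, and 96 of the 1224 higher genes were among them. The filter chose these genes for signal in that group, so their p-values and contrasts support nothing further. Without the normal diet replicate 1 the count fell to 1265 genes, the lowest of the 6 counts with 1 array left out. The count of lower genes changed by over 1.5 times without that array (422), without normal diet replicate 2 (443) or without high-fat replicate 2 (455).

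**Figure D1:**
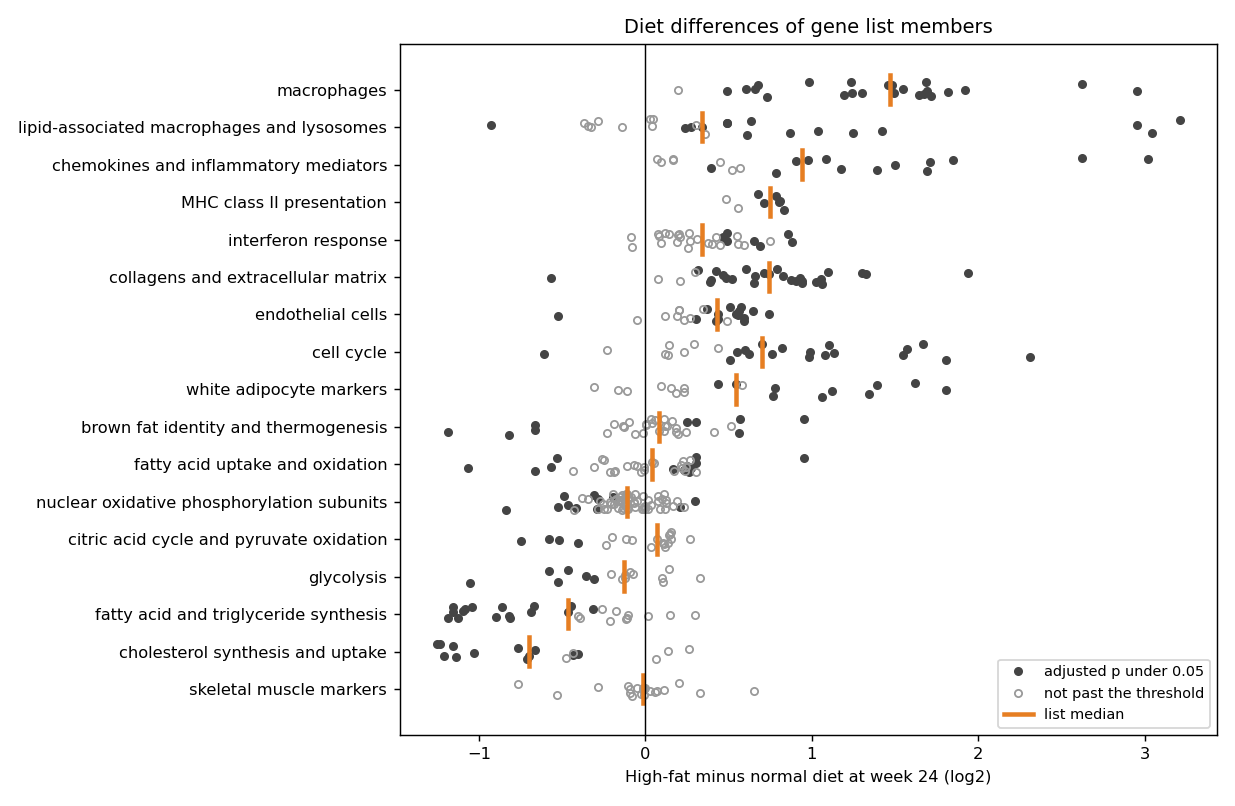
Difference between high-fat and normal diet at week 24 (log2, horizontal axis) for each measured member of 17 gene lists (rows). Filled points passed an adjusted p of 0.05 and orange bars mark list medians, which run from 1.47 for macrophages to -0.70 for cholesterol synthesis and uptake.

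Genes listed for lipid-associated macrophages were among the largest rises, though the lipid load of the cells was not measured. Gpnmb, a membrane glycoprotein of lysosome-rich macrophages, had a log2 signal of 12.39, 12.33 and 12.50 on high-fat arrays, against 8.72, 9.33 and 9.53 on normal diet arrays. Every high-fat array lay above every normal diet array, and the difference was 3.21 log2 units (SE 0.31, adjusted p = 1.32e-08), or 9.28-fold. Diets were apart in this way, in either direction, for 37.6% of all genes. Its second probe differed by 2.49. Trem2, the lipid-sensing receptor, stood at 8.90, 8.94 and 9.03 on high-fat arrays, against 5.54, 6.01 and 6.19 on normal diet arrays. It rose by 3.05 log2 units (SE 0.21, adjusted p = 7.8e-11), or 8.26-fold, and was detected on 1 of the 3 normal diet arrays and on 6 of the 27 arrays of other weeks. Lgals3, the galectin that activated macrophages secrete, stood at 13.04, 13.17 and 13.35 on high-fat arrays, against 9.99, 10.20 and 10.52 on normal diet arrays, a rise of 2.95 log2 units (SE 0.24, adjusted p = 7.7e-10). Earlier diet differences were smaller in all 3 genes. That of Gpnmb was -0.12, 0.17, -0.45 and 0.02 at weeks 2, 4, 8 and 20, that of Trem2 -0.18, -0.39, -0.25 and -0.02 at weeks 2, 4, 8 and 20, and that of Lgals3 -0.04, 0.18, -0.26 and 0.19 at weeks 2, 4, 8 and 20. Those of Trem2 lie mostly between undetected signals. The difference at week 24 exceeded the mean of those weeks by 3.31 log2 units (SE 0.34, adjusted p = 1.39e-07) for Gpnmb, 3.25 log2 units (SE 0.24, adjusted p = 5.58e-10) for Trem2 and 2.93 log2 units (SE 0.27, adjusted p = 1.83e-08) for Lgals3.

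Gpnmb, Trem2 and Slc37a2 share a short letter pattern around their starts. The windows below run from 250 bases before to 50 after the transcription start of the RefSeq entry on GRCm38.p6. They are shown because these 3 leading genes carry TGANTCA, a loose form of the site of AP-1 type factors, where N is any base. The middle base is C in Gpnmb, A in Trem2 and G in Slc37a2. Capitals mark the match, read 5′ to 3′ on the strand of the gene, and both strands were searched. Gpnmb lies at chr6:49036268-49036567, plus strand, Trem2 at chr17:48346151-48346450, plus strand, and Slc37a2 at chr9:37255689-37255988, minus strand.
Gpnmb: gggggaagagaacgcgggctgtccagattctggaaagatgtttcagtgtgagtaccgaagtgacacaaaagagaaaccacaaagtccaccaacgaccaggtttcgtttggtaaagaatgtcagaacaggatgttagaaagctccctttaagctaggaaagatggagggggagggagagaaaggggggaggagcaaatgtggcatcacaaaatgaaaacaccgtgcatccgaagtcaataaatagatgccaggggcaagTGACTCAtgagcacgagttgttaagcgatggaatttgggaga
Trem2: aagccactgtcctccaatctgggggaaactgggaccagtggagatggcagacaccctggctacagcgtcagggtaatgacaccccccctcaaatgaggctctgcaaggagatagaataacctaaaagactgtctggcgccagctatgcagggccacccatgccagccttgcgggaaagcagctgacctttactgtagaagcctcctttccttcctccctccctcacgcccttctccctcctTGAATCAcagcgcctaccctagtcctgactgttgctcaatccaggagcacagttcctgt
Slc37a2: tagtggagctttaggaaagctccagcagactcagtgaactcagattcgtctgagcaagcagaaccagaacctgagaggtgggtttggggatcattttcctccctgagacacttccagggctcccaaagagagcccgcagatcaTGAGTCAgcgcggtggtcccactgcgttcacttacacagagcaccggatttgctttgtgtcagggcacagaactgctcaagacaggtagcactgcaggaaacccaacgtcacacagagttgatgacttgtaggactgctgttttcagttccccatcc
A gene was counted once if any of its promoters matched. The pattern occurred in 4 of 23 genes of the lipid-associated macrophage and lysosome list (17.4%) and in 3 of 17 of the macrophage list (17.6%). It occurred in 2565 of all 32851 promoters in the table (7.81%) and in 505 of the 7833 tested genes that had one (6.45%). These genes were chosen for display with their values and matches known, and a match is a description of the letters only.

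In the list of lipid-associated macrophage and lysosome genes, 14 of 25 measured genes rose (12.7% of all tested genes did), 1 fell (7.64% did) and 10 did not pass, with a median difference of 0.34. Of the 25, 9 had a more positive difference at week 24 than over the other weeks (6.19% of all tested genes did), and 0 a more negative one (2.64%). Mmp12, the macrophage elastase, had 6.17, 6.25 and 6.28 on high-fat arrays, against 4.95, 4.76 and 4.73 on normal diet arrays. Its probe was detected on the 3 high-fat arrays of week 24 and on no other array, so it was at least 1.13-fold higher, counted from the lowest detected signal (adjusted p = 3.96e-08). The gene that fell was Fabp5, a fatty acid binding protein of macrophages and skin, at -0.93 (SE 0.22, adjusted p = 0.0031), named after its value was seen. Slc37a2, a sugar phosphate transporter of macrophages, stood at 7.40, 7.29 and 7.64 on high-fat arrays, against 4.71, 5.17 and 5.27 on normal diet arrays. It too was detected only on the 3 high-fat arrays of week 24 and was at least 2.62-fold higher there (adjusted p = 4.27e-14). Clec4d, a C-type lectin of myeloid cells with the same detection pattern, was at least 2.76-fold higher (adjusted p = 3.13e-10). The p-values of Mmp12, Slc37a2 and Clec4d support nothing further, as each was tested only through the group where it is high.

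The wider macrophage list moved almost as a whole. Of 24 measured genes, 23 rose and 0 fell, with a median of 1.47, against 0.01 for all genes. Among the 23, 1 gene was tested only through the high-fat group of week 24, where it is high, so its p-value supports nothing further. The gene that did not pass, named after its value was seen, was the integrin Itgb2 (0.20, SE 0.18, adjusted p = 0.493), which was below detection on all normal diet arrays. Laptm5, a lysosomal membrane protein of blood cells, stood at 12.84, 12.76 and 12.83 on high-fat arrays, against 10.97, 11.19 and 11.14 on normal diet arrays, a rise of 1.71 log2 units (SE 0.12, adjusted p = 5.17e-11). Lyz1, a lysozyme, rose by 1.64 log2 units (SE 0.14, adjusted p = 1.35e-09), though its probe may also read the near-identical Lyz2. Averaged over its 24 members the list stood at 9.22, 9.20 and 9.23 on high-fat arrays, against 7.74, 7.92 and 7.86 on normal diet arrays. The spread within each diet was far below the gap between them. High-fat arrays of week 20 reached 8.42 to 8.68 and normal diet arrays of week 20 8.22 to 8.38. A more positive difference at week 24 than over weeks 2 to 20 was found for 19 of the 24 genes (6.19% of all genes). The list's median over weeks 2 to 20 was 0.24. In whole tissue, more macrophages and more RNA per macrophage cannot be told apart, and the same holds for each cell type below.

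Among chemokines and inflammatory mediators 13 of 20 measured genes rose and 0 fell (median 0.94). Ccl7, which draws monocytes, had 8.73, 8.86 and 8.94 on high-fat arrays, against 5.64, 5.94 and 5.90 on normal diet arrays, and its probe was detected only on the 3 high-fat arrays of week 24. It was at least 6.91-fold higher (adjusted p = 5.86e-11). Ccl9, a macrophage chemokine present on all 33 arrays, stood at 10.89, 11.08 and 11.27 on high-fat arrays, against 8.25, 8.64 and 8.49 on normal diet arrays. The rise was 2.62 log2 units (SE 0.15, adjusted p = 1.81e-12), and in earlier weeks the difference was 0.48, 0.55, -0.17 and 0.09 at weeks 2, 4, 8 and 20. Lcn2, a secreted iron-sequestering protein of inflamed fat, rose by 1.71 log2 units (SE 0.19, adjusted p = 1.65e-07) and Ccl3 was at least 1.24-fold higher (adjusted p = 1.12e-07). Of the 13 genes, 4 were among those tested only through the high-fat group of week 24. Ccl7 and Ccl3 were among them, and their p-values support nothing further. When the filter used only the 27 arrays of other weeks, a choice made after seeing the data, 7 of the list's genes rose, with a median of 0.54. Other genes among the 10 largest rises were Cd44, the hyaluronan receptor (2.24, SE 0.18), and Capg, an actin-capping protein of macrophages (2.18, SE 0.12). Their second probes differed by less, 0.94 for Cd44 and 0.27 for Capg (adjusted p = 0.296).

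**Figure D2:**
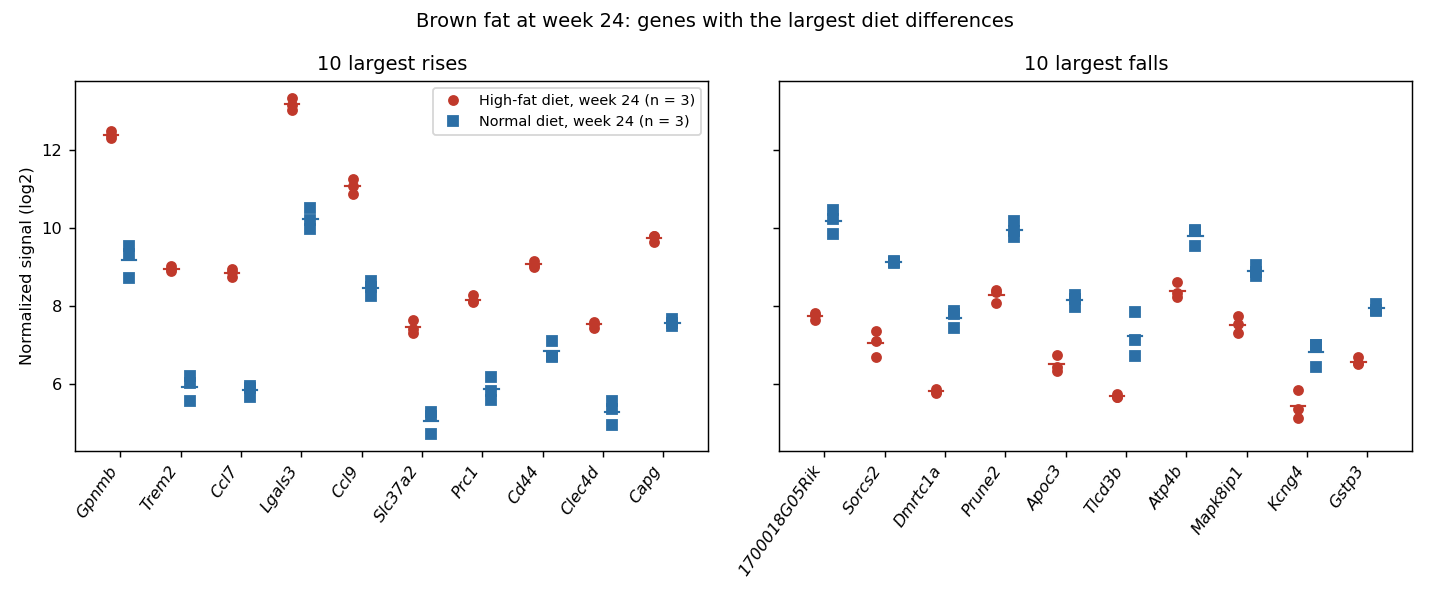
Normalized log2 signal (vertical axis) of the 10 genes with the largest rises (left panel) and the 10 with the largest falls (right panel) on the 6 arrays of week 24. Circles are high-fat and squares normal diet arrays (n = 3 each), short lines are group means, and in each of the 20 genes the diets do not overlap, which the choice of genes required.

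Genes of antigen presentation rose in most of a short list, and interferon genes in fewer. In the list of MHC class II presentation 6 of 8 measured genes rose (median 0.75). The list's mean was 9.35 to 9.67 on high-fat arrays of week 24 and 9.49 to 9.56 on those of week 20. On normal diet arrays it was 8.60 to 8.92 at week 24, against 9.33 to 9.57 at week 20. H2-DMb2, which loads peptide onto class II molecules, stood at 8.90, 8.63 and 8.94 on high-fat arrays, against 8.14, 7.98 and 7.86 on normal diet arrays, and rose by 0.83 log2 units (SE 0.18, adjusted p = 0.00132). H2-Aa, a class II chain, rose by 0.80 log2 units (SE 0.20, adjusted p = 0.00395). For 0 of the 8 genes did week 24 differ from the mean of the other weeks past the threshold, where the list's median was already 0.33, and 3 did so at an unadjusted p of 0.05 in limma. Of 30 interferon response genes 7 rose, 0 fell and 23 did not pass (median 0.34, against 0.32 over the other weeks). The 7 became 4 without high-fat replicate 1, high-fat replicate 3 or normal diet replicate 2. Ifit3, an antiviral protein that interferon induces, stood at 9.57, 9.32 and 9.74 on high-fat arrays, against 8.72, 8.68 and 8.57 on normal diet arrays. It rose by 0.88 log2 units (SE 0.14, adjusted p = 3.88e-05), while its second probe differed by 0.26 (adjusted p = 0.391). Rsad2, another antiviral enzyme, rose by 0.65 log2 units (SE 0.15, adjusted p = 0.00292).

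The promoter of Ifit3 is shown as that of the list's leading member, at chr19:34583279-34583578, plus strand of GRCm38.p6, with capitals at both matches to the interferon-stimulated pattern, GAAA followed after 2 further bases by GAAA again. Both strands were searched and both matches here are on the opposite strand.
Ifit3: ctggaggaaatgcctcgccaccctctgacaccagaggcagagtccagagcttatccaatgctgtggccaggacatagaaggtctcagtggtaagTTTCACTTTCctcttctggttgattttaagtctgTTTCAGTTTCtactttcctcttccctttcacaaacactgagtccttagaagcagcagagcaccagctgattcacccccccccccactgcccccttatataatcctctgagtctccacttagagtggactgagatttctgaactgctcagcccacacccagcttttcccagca
The pattern occurred, in any promoter of a gene, in 14 of 25 genes of the interferon response list (56%). The same count gave 289 of the 7833 tested genes with a promoter in the table (3.69%). Counted by promoter, it was 1131 of all 32851 (3.44%).

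Genes of dividing cells also rose. In the cell cycle list 17 of 25 measured genes rose and 1 fell (median 0.70). Prc1, which bundles the spindle midzone in cytokinesis, stood at 8.12, 8.27 and 8.09 on high-fat arrays, against 5.57, 5.81 and 6.17 on normal diet arrays, a rise of 2.31 log2 units (SE 0.21, adjusted p = 8.14e-09). It was detected on 1 normal diet array. Tk1, thymidine kinase, had 6.92, 6.53 and 6.94 on high-fat arrays, against 5.15, 4.90 and 4.93 on normal diet arrays, and was at least 1.68-fold higher (adjusted p = 7.58e-10). Cdca8, a chromosomal passenger protein, was at least 2.51-fold higher (adjusted p = 3.41e-08), and Top2a, the topoisomerase of replicating DNA, at least 1.5-fold (adjusted p = 2.29e-07). Tk1, Cdca8 and Top2a were detected on no array but the 3 high-fat ones of week 24, so their p-values support nothing further. The mean of the list's 25 genes was 7.45 to 7.54 on high-fat arrays and 6.70 to 6.73 on normal diet arrays of week 24, against 6.37 to 6.71 on the 27 arrays of other weeks. Of the 17 genes, 6 were tested only through the high-fat group, and with detection judged on the other weeks 11 rose. Ccne1, a cyclin of the start of replication, was the 1 gene lower (-0.61, SE 0.22, adjusted p = 0.0454), named after its value was seen, and it missed the threshold in 11 of 17 alternative settings.

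Matrix genes rose in most of their list. In the list of collagens and extracellular matrix, 27 of 31 measured genes rose and 1 fell (median 0.74). Of the 31, 21 had a more positive difference at week 24 (6.19% of all genes did), with a median of 0.05 over the other weeks. Timp1, an inhibitor of matrix proteases, stood at 7.61, 7.63 and 7.29 on high-fat arrays, against 5.53, 5.83 and 5.36 on normal diet arrays. Its probe was below detection on the normal diet arrays, so the rise was at least 2.74-fold (adjusted p = 2.88e-07), and its second probe differed by 1.87. Col1a1, a chain of fibrillar type I collagen, stood at 9.66, 9.33 and 9.52 on high-fat arrays, against 8.36, 8.20 and 8.05 on normal diet arrays, and rose by 1.30 log2 units (SE 0.15, adjusted p = 1.78e-07). Col5a1, which nucleates collagen fibrils, rose by 1.32 log2 units (SE 0.13, adjusted p = 1.24e-08), and Bgn, the proteoglycan biglycan, by 1.03 log2 units (SE 0.11, adjusted p = 4.28e-08). The earlier differences of Col1a1 were 0.31, 0.34, -0.71 and -0.01 at weeks 2, 4, 8 and 20, with no common direction. The list's mean was 9.49, 9.40 and 9.36 on high-fat arrays, against 8.65, 8.77 and 8.68 on normal diet arrays, and it was 9.07 to 9.10 on high-fat arrays of week 20. The gene that fell, named after its value was seen, was the laminin chain Lama4 (-0.57, SE 0.20, adjusted p = 0.0496), below detection on the high-fat arrays and past the threshold in 7 of 18 alternative settings.

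**Figure D3:**
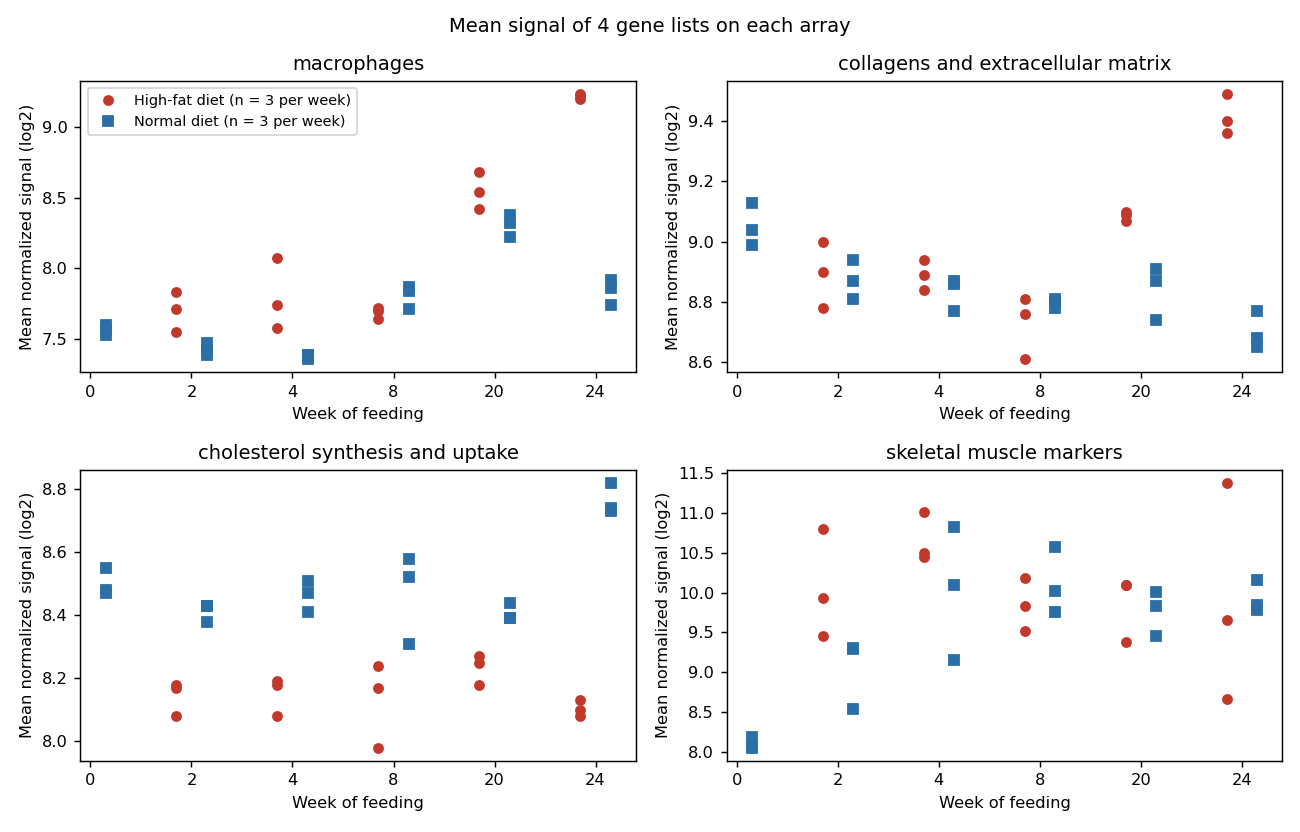
Mean normalized log2 signal (vertical axis) of 4 gene lists on each array by week of feeding (horizontal axis, not to scale). Circles are high-fat and squares normal diet arrays (n = 3 per week and diet), and the macrophage and matrix lists are highest on the high-fat arrays of week 24, at 9.20 to 9.23 and 9.36 to 9.49, while the skeletal muscle list spreads there from 8.66 to 11.38.

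Vessel and stromal markers rose by smaller amounts. Of 24 endothelial genes 14 rose and 1 fell (median 0.43). The list's mean was 10.12 to 10.19 on high-fat arrays of week 24, near those of other weeks (10.13 to 10.27). It was 9.74 to 9.84 on normal diet arrays of week 24, below those of all other normal diet arrays (9.89 to 10.43). Icam2, an adhesion molecule of endothelium, rose by 0.74 log2 units (SE 0.13, adjusted p = 0.000102) and Egfl7, a secreted vessel factor, by 0.56 log2 units (SE 0.08, adjusted p = 7.03e-06). A second probe of Egfl7 differed by 0.29 (adjusted p = 0.0964). Nos3, the endothelial nitric oxide synthase, was the 1 that fell, by 0.53 log2 units (SE 0.15, adjusted p = 0.012), and was named after its value was seen. Its earlier differences were 0.27, 0.38, 0.02 and 0.11 at weeks 2, 4, 8 and 20, and the contrast with them was -0.72 log2 units (SE 0.17, adjusted p = 0.00499). The call of Nos3 at week 24 was lost without normal diet replicate 1 (adjusted p = 0.1) or high-fat replicate 2 (adjusted p = 0.052). Of 14 genes of fibroblasts and adipose progenitors 6 rose and 0 fell (median 0.43). They included Anxa3, an annexin (0.85, SE 0.08), Mfap5, a microfibril protein (0.93, SE 0.20), and Pdgfra, the receptor that marks progenitors (0.57, SE 0.15). Without normal diet replicate 1 Pdgfra no longer passed (adjusted p = 0.0627). Of 7 smooth muscle and pericyte genes 4 rose and 0 fell (median 0.35), but 1 or 2 rose without replicate 1 or 2 of either diet.

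Markers of further cell types were examined beside these. Skeletal muscle, which lies under the depot, gave 0 calls in 21 measured genes, 0 also at an unadjusted p of 0.05 in limma (median -0.01). Its mean signal was 9.66, 11.38 and 8.66 on high-fat arrays, against 9.84, 10.16 and 9.78 on normal diet arrays, so the high-fat arrays differed widely among themselves and overlapped the normal diet ones. Myl2, a myosin light chain of slow muscle, had 8.33, 11.01 and 6.67 on high-fat arrays, against 9.73, 9.77 and 8.81 on normal diet arrays. The 5 red blood cell genes gave 0 calls in limma, with 2 higher at an unadjusted p of 0.05 (median 0.28). Of 23 lymphocyte genes only 4 were measured, of which 2 rose, 0 fell and 2 did not pass. The 2 that did not pass in limma were Cd79b (0.13, SE 0.21, adjusted p = 0.719) and Cd8b1 (0.06, SE 0.08, adjusted p = 0.683). In both the diets overlapped. Cd52, a surface antigen of lymphocytes and myeloid cells, rose by 1.38 log2 units (SE 0.23, adjusted p = 8.6e-05), with a second probe at 0.47 (adjusted p = 0.218), and the cytokine receptor Il7r was at least 1.62-fold higher (adjusted p = 0.00296), whereas the T cell genes Cd3d, Cd3e and Cd3g were not detected on 3 arrays. Of 8 mast cell and neutrophil genes 3 rose and 1 fell, and 1 to 3 rose across the alternative settings. Among the 3, 1 gene not described here was tested only through the high-fat group of week 24, where it is high. Its p-value supports nothing further. Cpa3, a mast cell protease, was at least 1.07-fold higher (adjusted p = 0.00194), and the stem cell factor receptor Kit, also carried by mast cells, stood at 8.30, 7.91 and 8.08 on high-fat arrays, against 9.53, 9.23 and 9.36 on normal diet arrays, and fell by 1.28 log2 units (SE 0.16, adjusted p = 1.3e-06). Of 4 measured nerve and Schwann cell genes 1 was called higher, S100b, which was below detection on all 6 arrays of week 24. The part of these cell types, and of macrophages, in the other results was not tested.

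Genes that make cholesterol fell together. In the list of cholesterol synthesis and uptake 12 of 17 measured genes fell, 0 rose and 5 did not pass (median -0.70). Pmvk, phosphomevalonate kinase of the mevalonate pathway, had 8.78, 8.53 and 8.77 on high-fat arrays, against 9.95, 10.05 and 9.85 on normal diet arrays, and fell by 1.25 log2 units (SE 0.13, adjusted p = 7.58e-08), or 2.38-fold. Lss, the cyclase that forms lanosterol, had 8.53, 8.64 and 8.71 on high-fat arrays, against 9.61, 9.96 and 9.72 on normal diet arrays, and fell by 1.14 log2 units (SE 0.13, adjusted p = 2.43e-07). Sqle, squalene epoxidase, stood at 8.43, 8.61 and 8.72 on high-fat arrays, against 9.75, 9.78 and 9.72 on normal diet arrays, and fell by 1.16 log2 units (SE 0.14, adjusted p = 4.21e-07). In each of these genes the diets did not overlap. Fdps, which makes farnesyl diphosphate, fell by 1.03 log2 units (SE 0.11, adjusted p = 4.28e-08), while its dimmer second probe differed by -0.44 (adjusted p = 0.204). The list had also leaned down earlier, with a median of -0.28 over weeks 2 to 20. A more negative difference at week 24 was found for 6 of its genes (2.64% of all genes). For Pmvk the contrast with the other weeks was -0.78 log2 units (SE 0.15, adjusted p = 0.000674) and for Lss -0.75 log2 units (SE 0.14, adjusted p = 0.000896). For Sqle, already at -0.81, -0.66, -0.84 and -0.64 at weeks 2, 4, 8 and 20, it was -0.42 log2 units (SE 0.15, adjusted p = 0.0842). The list's mean was 8.08 to 8.13 on high-fat arrays of week 24, within the range of the high-fat arrays of other weeks (7.98 to 8.27). It was 8.73 to 8.82 on normal diet arrays of week 24, above those of all other normal diet arrays (8.31 to 8.58).

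Promoters of Pmvk and Lss are shown as members of the list whose fall was described above. Pmvk lies at chr3:89454291-89454590, plus strand, and Lss at chr10:76531355-76531654, plus strand, both on GRCm38.p6, and capitals mark CCAAT, the box bound by factor NF-Y, searched on both strands.
Pmvk: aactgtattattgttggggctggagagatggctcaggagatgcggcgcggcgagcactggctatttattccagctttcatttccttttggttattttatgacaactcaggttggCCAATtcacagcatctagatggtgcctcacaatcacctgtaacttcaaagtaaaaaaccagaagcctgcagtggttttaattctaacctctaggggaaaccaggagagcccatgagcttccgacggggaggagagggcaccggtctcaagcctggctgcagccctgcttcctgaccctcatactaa
Lss: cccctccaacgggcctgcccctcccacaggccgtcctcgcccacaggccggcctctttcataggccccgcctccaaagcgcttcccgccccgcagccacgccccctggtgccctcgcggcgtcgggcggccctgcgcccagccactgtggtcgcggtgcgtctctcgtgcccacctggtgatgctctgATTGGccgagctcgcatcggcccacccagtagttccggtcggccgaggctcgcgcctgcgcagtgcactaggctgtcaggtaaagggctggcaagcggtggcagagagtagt
CCAAT occurred, in any promoter of a gene, in all 14 genes of the list that the table holds. Counted by gene, it occurred in 3344 of the 7833 tested genes with a promoter (42.7%). It did so in 15 of 20 genes of the fatty acid synthesis list (75%) and in 17 of 23 of the cell cycle list (73.9%). Counted by promoter, it was 12289 of all 32851 (37.4%). The 3 patterns searched were chosen with the results known. The cholesterol and fatty acid synthesis lists moved down and the cell cycle list moved up.

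Fatty acid and triglyceride synthesis fell as well, with 16 of 27 measured genes lower and 0 higher (median -0.47, against -0.09 over the other weeks). Elovl6, which elongates palmitate, had 12.91, 12.80 and 13.05 on high-fat arrays, against 13.96, 14.24 and 14.12 on normal diet arrays, and fell by 1.19 log2 units (SE 0.11, adjusted p = 9.92e-09). Its second probe, near the detection limit, differed by -0.47 (adjusted p = 0.128). Aacs, acetoacetyl-CoA synthetase, had 12.08, 12.15 and 12.18 on high-fat arrays, against 13.15, 13.29 and 13.27 on normal diet arrays, and fell by 1.10 log2 units (SE 0.09, adjusted p = 1.63e-09). Acss2, which makes acetyl-CoA from acetate, fell by 1.08 log2 units (SE 0.12, adjusted p = 3.07e-07). Slc25a1, the citrate carrier that exports carbon from mitochondria, fell by 1.16 log2 units (SE 0.13, adjusted p = 1.37e-07), and Fasn, fatty acid synthase, fell by 1.16 log2 units (SE 0.17, adjusted p = 8.42e-06). For 11 of the 27 genes the difference was more negative at week 24 (2.64% of all genes). The list's mean was 11.74 to 11.84 on high-fat arrays of week 24, inside the range of earlier high-fat arrays (11.60 to 11.90). It was 12.34 to 12.38 on normal diet arrays of week 24, above those of weeks 2 to 20 (11.81 to 12.03) and at the upper end of week 0 (12.24 to 12.34). Aacs had 0.06, -0.17, -0.10 and -0.54 at weeks 2, 4, 8 and 20, and the contrast was -0.91 log2 units (SE 0.10, adjusted p = 6.08e-07). Scd1, a desaturase, was not called (-0.11, SE 0.06, adjusted p = 0.215), with raw intensities of 58380.3 to 65775.5, close to the highest intensity in the data, 71976.

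**Figure D4:**
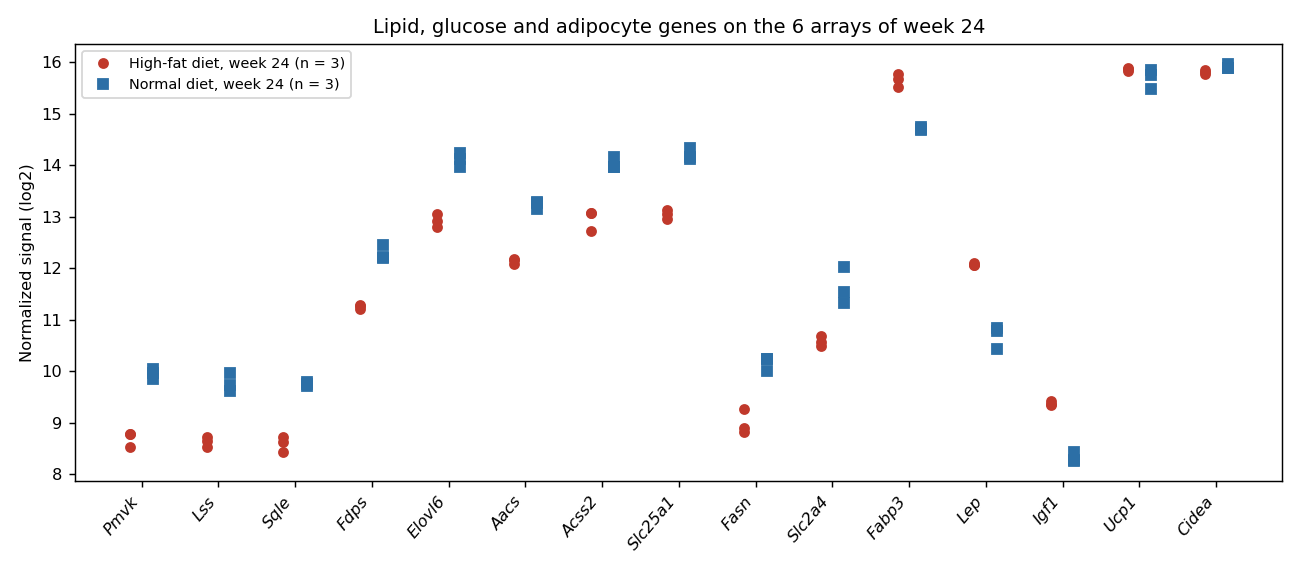
Normalized log2 signal (vertical axis) of 15 lipid, glucose and adipocyte genes on the 6 arrays of week 24. Circles are high-fat and squares normal diet arrays (n = 3 each); cholesterol and fatty acid synthesis genes lie lower on high-fat diet, Fabp3, Lep and Igf1 higher, and Ucp1 and Cidea stand near the top of the scale.

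Glucose handling genes leaned the same way. In the glycolysis list 6 of 16 measured genes fell and 0 rose (median -0.13). The list's mean was 11.70, 11.96 and 11.60 on high-fat arrays, against 12.05, 11.95 and 11.90 on normal diet arrays. The groups overlapped through high-fat replicate 2, which was also highest for skeletal muscle genes, and the part of muscle in these values was not tested. On normal diet arrays of other weeks the list's mean was 11.33 to 11.65, below all 3 normal diet arrays of week 24. High-fat arrays of other weeks had 11.37 to 11.69, so those of week 24 lay within or above that range. Slc2a4, the insulin-responsive glucose transporter, had 10.67, 10.50 and 10.56 on high-fat arrays, against 12.03, 11.54 and 11.32 on normal diet arrays. It fell by 1.05 log2 units (SE 0.14, adjusted p = 2.34e-06), or 2.07-fold, where earlier differences were -0.18, -0.08, -0.14 and 0.00 at weeks 2, 4, 8 and 20, a contrast of -0.95 log2 units (SE 0.15, adjusted p = 0.000111). The glycolytic enzyme genes Aldoa (-0.58, SE 0.08), Ldha (-0.53, SE 0.08) and Gapdh (-0.46, SE 0.08) fell by less. Gapdh, often used as a reference gene, stayed negative in all 19 alternative settings (-0.50 to -0.43). Of 19 genes of the citric acid cycle and pyruvate oxidation 4 fell and 0 rose (median 0.07, or -0.02 with a median shift), among them Pdk1, a kinase that inhibits pyruvate dehydrogenase (-0.75, SE 0.10), and Pdhb, a subunit of that enzyme (-0.52, SE 0.11), with another probe of Pdhb at 0.14 (adjusted p = 0.579). Of 69 nuclear subunits of oxidative phosphorylation 9 fell and 2 rose (median -0.11), against 7.64% of all genes falling and 12.7% rising. Ndufb6 fell by 0.53 log2 units (SE 0.10, adjusted p = 0.000231) and Ndufa1 fell by 0.47 log2 units (SE 0.10, adjusted p = 0.00132), both of complex I. Across the 19 alternative settings 3 to 21 of the 69 fell and 0 to 4 rose. With a median shift 15 fell and 0 rose, and single arrays moved the count of falls to 4 without high-fat replicate 2, 3 and 5 without normal diet replicates 1 and 2, and 15 without normal diet replicate 3.

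Fatty acid uptake and oxidation was mixed, with 8 of 35 measured genes higher and 4 lower (median 0.04). Of all genes tested 12.7% were higher and 7.64% lower. The 8 became 1 with a median shift, 4 without high-fat replicate 2, 3 without high-fat replicate 3, and 2 and 3 without normal diet replicates 1 and 2. Fabp3, which carries fatty acids in oxidative tissue, stood at 15.68, 15.78 and 15.52 on high-fat arrays, against 14.68, 14.71 and 14.73 on normal diet arrays, a rise of 0.95 log2 units (SE 0.09, adjusted p = 7.33e-09), after 0.59, 0.66, 0.46 and 0.51 at weeks 2, 4, 8 and 20. Acot1, a thioesterase of the cytosol, had 11.07, 11.25 and 10.77 on high-fat arrays, against 11.89, 12.20 and 12.20 on normal diet arrays, and fell by 1.07 log2 units (SE 0.16, adjusted p = 2.13e-05). The fatty acid transporter Slc27a1 fell by 0.57 log2 units (SE 0.10, adjusted p = 7.36e-05) and the brown fat thioesterase Acot11 fell by 0.66 log2 units (SE 0.09, adjusted p = 6.75e-06). Both contrasts with earlier weeks passed, at -0.66 log2 units (SE 0.11, adjusted p = 0.000111) for Slc27a1 and -0.64 log2 units (SE 0.10, adjusted p = 0.000121) for Acot11. Cpt1b, which admits fatty acids to mitochondria, was called at 0.30 log2 units (SE 0.10, adjusted p = 0.0309), but it missed the threshold in 7 of 19 alternative settings, where the adjusted p reached 0.25. Its second probe differed by 0.41 (SE 0.08, adjusted p = 0.00101 over all kept probes). Pdk4, which spares glucose, did not pass (0.27, SE 0.15, adjusted p = 0.222). Among 20 genes of branched-chain amino acid breakdown 3 rose and 3 fell (median 0.04). Oxct1, which uses ketone bodies, rose by 0.58 log2 units (SE 0.08, adjusted p = 2.18e-06), and Bcat1, a transaminase, was at least 1.73-fold higher (adjusted p = 0.000167).

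Most genes that define brown fat had no called difference, as held for most of all genes tested. In the list of brown fat identity and thermogenesis 5 of 33 measured genes rose (12.7% of all tested genes did). Of the rest, 4 fell (7.64% did) and 24 did not pass (median 0.08). The 5 include S100b, below detection on all 6 arrays, and became 2 or 3 without any 1 of the 6 arrays but normal diet replicate 1. Ucp1, the defining gene, was detected on all 33 arrays. It had 15.88, 15.87 and 15.83 on high-fat arrays, against 15.86, 15.76 and 15.49 on normal diet arrays, and the groups overlapped (difference 0.16, SE 0.11, adjusted p = 0.327). Cidea, a lipid droplet protein of brown fat, differed by -0.10 log2 units (SE 0.06, adjusted p = 0.235), and the coactivator Ppargc1a by 0.51 log2 units (SE 0.31, adjusted p = 0.269). In both genes the diets did not overlap, as in 37.6% of all genes. Ppargc1a passed in limma when the week 24 arrays were fitted alone (adjusted p = 0.0104). Raw intensities of Ucp1 were 55982.8 to 59459.4 on high-fat and 47203.4 to 61143.2 on normal diet arrays, near the top of the measured range. Elovl3, an elongase tied to cold-activated brown fat, stood at 8.75, 8.87 and 9.13 on high-fat arrays, against 9.75, 9.80 and 9.66 on normal diet arrays. It fell by 0.82 log2 units (SE 0.16, adjusted p = 0.000443), where earlier differences were -0.08, 0.12, 0.10 and -0.23 at weeks 2, 4, 8 and 20, a contrast of -0.80 log2 units (SE 0.18, adjusted p = 0.00392). The deiodinase Dio2 was detected on fewer than 3 arrays and was not tested. Among 10 measured genes of creatine and calcium cycling 3 were higher and 0 lower. They included brain-type creatine kinase Ckb (1.01, SE 0.12), and the calcium channel Ryr2, at least 1.57-fold higher (adjusted p = 0.000799), whose earlier differences were as large (0.95, 0.78, 1.19 and 1.70 at weeks 2, 4, 8 and 20). That list averaged 9.35, 9.84 and 9.08 on high-fat arrays, against 9.15, 9.33 and 9.14 on normal diet arrays, highest on high-fat replicate 2, as the skeletal muscle list was.

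White fat markers rose in the same samples. Of 19 measured genes 10 rose and 0 fell (median 0.54), and 5 had a more positive difference at week 24 (6.19% of all genes did). The list's mean was 9.24 to 9.29 on high-fat arrays of week 24, near the 9.22 to 9.31 of week 20. It was 8.57 to 8.73 on normal diet arrays of week 24, below the 8.88 to 8.92 of week 20. Nnmt, a nicotinamide methyltransferase, had 11.73, 11.74 and 11.70 on high-fat arrays, against 9.68, 9.96 and 10.11 on normal diet arrays, a rise of 1.81 log2 units (SE 0.20, adjusted p = 1.45e-07) that followed 0.17, 1.03, 0.45 and 1.60 at weeks 2, 4, 8 and 20. Sncg, gamma-synuclein, rose by 1.62 log2 units (SE 0.16, adjusted p = 2.57e-08). Lep, the gene of the satiety hormone leptin, stood at 12.07, 12.10 and 12.06 on high-fat arrays, against 10.44, 10.83 and 10.78 on normal diet arrays, and rose by 1.39 log2 units (SE 0.29, adjusted p = 0.00081). Its difference was -0.05, 0.78, 0.45 and 1.49 at weeks 2, 4, 8 and 20, and week 24 did not differ from their mean past the threshold, by 0.73 log2 units (SE 0.32, adjusted p = 0.169). Peg3, an imprinted gene, rose by 1.34 log2 units (SE 0.20, adjusted p = 1.16e-05), with no rise at weeks 2 to 20 on average (-0.11) and a contrast of 1.45 log2 units (SE 0.22, adjusted p = 4.69e-05). Mest, another imprinted gene, was detected only on the 3 high-fat arrays of week 24 and was at least 1.24-fold higher (adjusted p = 0.000664). Mest was thus tested only through the group where it is high, and its p supports nothing further. Without the detection filter another probe stood for Mest and differed by -0.03 (adjusted p = 0.97). Adipoq, the adiponectin gene (0.19, SE 0.08, adjusted p = 0.122), and the lipoprotein lipase gene Lpl (0.05, SE 0.07, adjusted p = 0.663) did not pass.

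Igf1, a growth factor, was higher on high-fat diet at week 24, whereas its mean difference over the other weeks was negative (-0.48). It stood at 9.35, 9.34 and 9.42 on high-fat arrays, against 8.25, 8.42 and 8.27 on normal diet arrays, a rise of 1.06 log2 units (SE 0.15, adjusted p = 1.02e-05), and its second probe differed by 0.93. The earlier differences were -0.70, -0.43, -0.85 and 0.05 at weeks 2, 4, 8 and 20. The contrast between week 24 and their mean was 1.54 log2 units (SE 0.17, adjusted p = 4.67e-07). In its list of insulin and growth factor signalling 4 of 18 measured genes rose, among them the binding protein Igfbp7 (0.70, SE 0.11), and Slc2a4 was the 1 gene that fell (median 0.10). Of all genes tested 12.7% rose and 7.64% fell. In the list of lipid droplets and lipolysis 1 of 21 genes rose and 1 fell (median 0.04, or -0.04 with a median shift). These were Hilpda, an inhibitor of lipolysis (0.75, SE 0.24, adjusted p = 0.0285), and Hcar2, an antilipolytic receptor (-1.13, SE 0.27, adjusted p = 0.00313). Hilpda lost its call when any of 4 single arrays was left out, with adjusted p values of 0.0584 to 0.121, and its second probe differed by 0.43 (adjusted p = 0.127).

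Stress and signalling lists gave fewer calls. Of 24 stress response genes 4 rose and 0 fell (median 0.27). Over all genes 12.7% rose and 7.64% fell, the shares to set beside each list of this paragraph. Fgf21, a hormone induced by metabolic stress, rose by 0.62 log2 units (SE 0.19, adjusted p = 0.0178), but it missed the threshold without any of 4 single arrays (adjusted p of 0.05 to 0.0632). Sdf2l1, a chaperone cofactor of the endoplasmic reticulum, was at least 1.64-fold higher (adjusted p = 2.69e-06), but was detected on 1 array outside the high-fat group of week 24. It and 1 more of the 4 genes were tested only through that group, where they are high, so their p-values support nothing further. Without high-fat replicate 3 or normal diet replicate 1 the 4 became 2. Psat1, of serine synthesis, rose by 0.78 log2 units (SE 0.17, adjusted p = 0.00115). Of 15 immediate early genes, which respond within minutes to handling and growth signals, 6 rose and 0 fell (median 0.72), but 2 or 3 rose without replicate 1 or 3 of either diet. Among the 6, 1 gene not described here was tested only through the high-fat group of week 24, where it is high. Its p-value supports nothing further. Jun stood at 9.65, 9.02 and 9.42 on high-fat arrays, against 8.30, 8.63 and 8.41 on normal diet arrays, and rose by 0.91 log2 units (SE 0.22, adjusted p = 0.00291), and Egr2 was at least 1.74-fold higher (adjusted p = 0.000394). Dusp1, an immediate early phosphatase that glucocorticoids also induce, had 13.32, 12.62 and 13.06 on high-fat arrays, against 11.52, 12.67 and 11.52 on normal diet arrays. Its groups overlapped through normal diet replicate 2, and its difference of 1.10 log2 units (SE 0.38, adjusted p = 0.0416) missed the threshold in 9 of 19 other settings. Of 16 glucocorticoid-induced genes 2 rose, Lcn2 and Dusp1 (median 0.26). Of 25 genes of glutathione and oxidant defence 5 rose and 4 fell (median -0.07), led by the glutathione transferase Gstp3, which fell by 1.37 log2 units (SE 0.18, adjusted p = 2.12e-06). Of 15 circadian clock genes 2 fell and 0 rose (median -0.24), and with a median shift 0 fell.

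The largest falls outside these lists were in genes of varied roles. 1700018G05Rik had 7.77, 7.63 and 7.82 on high-fat arrays, against 10.23, 10.46 and 9.85 on normal diet arrays, and fell by 2.44 log2 units (SE 0.24, adjusted p = 3.41e-08). It had been lower on high-fat diet at every earlier week too, with differences of -1.15, -1.96, -1.34 and -2.09 at weeks 2, 4, 8 and 20, and week 24 did not differ from their mean past the threshold, at -0.80 log2 units (SE 0.27, adjusted p = 0.0678). Sorcs2, a sorting receptor, stood at 7.36, 7.10 and 6.68 on high-fat arrays, against 9.12, 9.15 and 9.11 on normal diet arrays, and fell by 2.08 log2 units (SE 0.21, adjusted p = 2.77e-08), with a contrast of -1.41 log2 units (SE 0.23, adjusted p = 0.000133). Prune2 fell by 1.67 log2 units (SE 0.17, adjusted p = 3.47e-08), and the triglyceride-linked apolipoprotein Apoc3 fell by 1.65 log2 units (SE 0.22, adjusted p = 2.87e-06). The proton pump subunit Atp4b fell by 1.41 log2 units (SE 0.24, adjusted p = 7.09e-05), and the kinase scaffold Mapk8ip1 fell by 1.38 log2 units (SE 0.15, adjusted p = 9.77e-08). Dmrtc1a, Tlcd3b and the potassium channel subunit Kcng4 were detected on no high-fat array of week 24. They were lower there by at least 3.38-fold, 2.45-fold and 1.83-fold (adjusted p = 7.97e-07, 0.000133 and 7.58e-05). Dmrtc1a was detected on 1 array outside the normal diet group of week 24, so it was tested only through the group where it is high, and its p and its contrast support nothing further.

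Whether the diet difference itself differed between week 24 and earlier feeding was tested in the same model. The difference at week 24 departed from the mean of those at weeks 2, 4, 8 and 20 for 850 of 9630 genes (8.83%), more positive for 596 (6.19%) and more negative for 254 (2.64%). Of the 850, 789 also passed at week 24 itself, 566 higher and 223 lower. For comparison, 183, 115, 202, 449 and 1960 genes passed the diet test at weeks 2, 4, 8, 20 and 24. The 5 most positive contrasts among genes called in both tests were in Gpnmb, Trem2, Lgals3, Ccl7 and Ccl9, of which Ccl7 was detected only on the high-fat arrays of week 24. The 5 most negative were in Dmrtc1a, Sorcs2, Tlcd3b, Ccni and Dixdc1, of which Dmrtc1a, Tlcd3b, Ccni and Dixdc1 were detected on no high-fat array of week 24. Dixdc1, a Wnt pathway protein, was at least 1.87-fold lower (adjusted p = 0.000174). Ccni, a cyclin, had 4.96, 5.09 and 5.31 on high-fat arrays, against 7.07, 6.68 and 5.19 on normal diet arrays, so its groups overlapped, and without normal diet replicate 1 its call was lost (adjusted p = 0.0638). Set against week 20 alone, 386 genes departed, 289 more positive and 97 more negative. Leaving out normal diet replicate 1 gave 505 genes and leaving out normal diet replicate 3 gave 1276. With arrays set to 1 median instead, the median contrast of all genes moved to 0.19, and 1503 genes were more positive and 73 more negative. These directions are therefore relative to the quantile normalization.

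**Figure D5:**
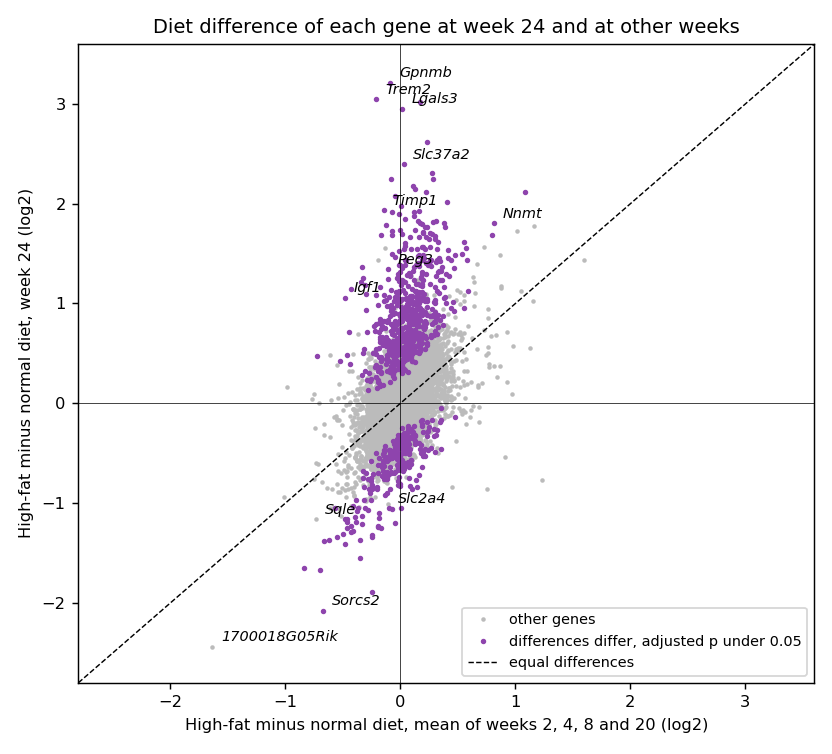
Diet difference of each of 9630 genes at week 24 (vertical axis, log2) against the mean of its differences at weeks 2, 4, 8 and 20 (horizontal axis, log2). Purple points mark the 850 genes whose 2 values differ past an adjusted p of 0.05, and the dashed line marks equal values; Gpnmb and Trem2 lie at 3.21 and 3.05 at week 24 with means near 0 before, and Igf1 lies at 1.06 with a mean of -0.48.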

How the data were processed

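Total RNA was labelled as biotin cRNA, per the labels' protocols. Probe intensities deposited by the authors came with a detection p-value each, per the file headers, and the submitters' processing notes name BeadStudio 3.1.3. Log2 values that the authors deposited, whose columns share 1 distribution, served only as an alternative. Intensities were corrected by normexp with negative control statistics inferred from detection p-values (neqc), given an offset of 16, normalized by quantiles and put on a log2 scale. Symbols came from the probe annotation, updated through Entrez for 34807 probes; 34885 probes had 1 symbol, 18 several and 10378 none, and 19057 genes had a probe. Every column of array values was matched to a sample.

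In limma a model with 1 mean per group (11 groups, 33 arrays) was fitted (22 residual degrees of freedom, 4.13 from the prior) and adjusted by Benjamini-Hochberg over 9630 genes. A gene undetected on all 3 arrays of a group is given as at least so many fold, counted from a floor, the larger of its own signal and the lowest detected one, averaged over those 3 arrays.

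Named genes were the 10 largest rises and falls without overlap, the 5 largest and smallest contrasts between week 24 and other weeks, up to 4 members of each of 32 lists with the smallest p, and 15 fixed genes. From these a subset is described, and 5 genes that did not move with their list were added after their values were seen. The rule, members, lists and sequence patterns were chosen with earlier results of these data known. Alternative settings left out the background correction, shifted medians, took the authors' values, dropped the detection filter, asked for detection on a whole group, averaged a gene's probes or tested all probes, and used a replicate block, array weights, a trended robust prior, fewer weeks, week 20 for the mean of other weeks, each of 6 arrays left out and, added after the data were seen, detection outside week 24. The fit was tested on simulated data. R 4.3.3, limma 3.58.1, data.table (1.17.8), statmod 1.5.0, Python 3.11.15, pandas 2.3.3, numpy 2.4.6 and matplotlib 3.10.9 were used.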

Additional observations from a re-analysis of the deposited data

Results flagged for a closer look

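The diet difference at week 24 departed from the mean of the same difference at weeks 2, 4, 8 and 20 for 850 genes, by a test of that contrast in limma. Each value is the difference at week 24 minus that mean, so a negative one is a lower difference at week 24. Of the genes named here 75 were among them, and their contrasts on the log2 scale follow by group. Among macrophage, chemokine and inflammatory genes it was 3.31 in Gpnmb, 3.25 in Trem2, 2.93 in Lgals3, 2.85 in Ccl7, 2.39 in Ccl9, 2.36 in Slc37a2, 2.32 in Clec4d, 2.07 in Capg, 1.96 in Cd44, 1.51 in Laptm5, 1.34 in Lyz1, 1.11 in Mmp12, 1.40 in Ccl3, 1.51 in Lcn2, 0.60 in Ifit3, 1.39 in Cd52 and 0.76 in Il7r. Among cell cycle, matrix, vessel and stromal genes it was 2.04 in Prc1, 1.59 in Cdca8, 1.64 in Tk1, 1.52 in Top2a, 2.08 in Timp1, 1.32 in Col1a1, 1.21 in Col5a1, 0.81 in Bgn, 0.39 in Egfl7, 0.55 in Anxa3, 0.91 in Mfap5 and -0.72 in Nos3. For lipid synthesis genes the contrast was -0.78 in Pmvk, -0.75 in Lss, -0.62 in Fdps, -0.72 in Elovl6, -0.91 in Aacs, -0.71 in Acss2, -0.69 in Slc25a1, -0.67 in Fasn and -0.80 in Elovl3. Among glucose and mitochondrial genes it was -0.95 in Slc2a4, -0.32 in Aldoa, -0.32 in Gapdh, -0.38 in Ldha, -0.50 in Pdk1, -0.50 in Pdhb, -0.49 in Ndufb6 and -0.37 in Ndufa1. Among genes of fatty acid handling and of amino acid or ketone use it was 0.40 in Fabp3, -0.79 in Acot1, -0.66 in Slc27a1, -0.64 in Acot11, 0.91 in Hilpda, 0.35 in Oxct1 and 0.84 in Bcat1. Among white fat and growth factor genes it was 0.99 in Nnmt, 1.07 in Sncg, 1.45 in Peg3, 0.93 in Mest, 1.54 in Igf1 and 0.60 in Igfbp7. The remaining genes had 1.18 in Egr2, 1.04 in Sdf2l1, 0.88 in Jun, 0.56 in Ckb, -0.71 in Mapk8ip1, -0.74 in Gstp3, -0.81 in Apoc3, -0.86 in Kit, -0.94 in Atp4b, -0.97 in Prune2, -1.02 in Kcng4, -1.09 in Dixdc1, -1.15 in Ccni, -1.19 in Tlcd3b, -1.41 in Sorcs2 and -1.65 in Dmrtc1a. The genes were named for their differences at week 24, so the signs within a group are no independent result. Ccl7, Slc37a2, Clec4d, Mmp12, Ccl3, Tk1, Cdca8, Top2a and Mest were detected on no array outside the high-fat group of week 24. Timp1, Il7r, Bcat1, Egr2 and Sdf2l1 were below detection on the normal diet arrays of week 24, and Dmrtc1a, Tlcd3b, Kcng4, Dixdc1 and Ccni on its high-fat arrays. For all of these the contrast is a fitted value that rests on signals below detection and is no bound. Lcn2 was detected on no array of other weeks, so the earlier differences in its contrast lie between undetected signals. Trem2 and Prc1 were detected on 6 and 9 arrays of other weeks, and each on 1 normal diet array of week 24. Their contrasts thus also rest in large part on undetected signals. Of the 75 contrasts, 36 missed the threshold in at least 1 alternative setting.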

How the results depend on the processing

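Of the 93 genes named here that passed at week 24, 83 kept call and direction in all 19 alternative settings, where each could be run, 9 missed the threshold in at least 1, and Mest reversed. Without a detection filter, where another probe stood for Mest, its difference was -0.03 and its contrast with other weeks -0.30. Among genes not called, Lpl was -0.05 with a median shift and -0.01 without normal diet replicate 1, and Myl2 ranged from -1.94 to 0.24 with 1 array left out, positive without high-fat replicate 3.

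With arrays shifted to 1 median 1850 genes passed at week 24, 77.5% of them higher against 62.4% in the main result, and 416 were lower. In the contrast with other weeks 1576 then passed, 1503 more positive and 73 more negative. Testing all kept probes gave 3209 calls with 1503 lower, and 1339 contrasts with 512 more negative, over 17243 probes in place of 9630 genes. Array weights gave 2977 calls with 1246 lower, and 1774 contrasts, 1104 more positive and 670 more negative. With week 20 in place of the mean of other weeks 386 contrasts passed, 289 more positive and 97 more negative. Leaving out 1 of the 6 arrays gave 1265 to 2265 calls, 843 to 1405 higher and 422 to 860 lower, and 505 to 1276 contrasts, 399 to 829 more positive and 106 to 447 more negative. Apart from the wider set of probes, the cause was not tested.

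With the replicate number as a block 1905 genes passed, 1867 of them shared with the main result. Same-numbered high-fat and normal diet arrays deviated together with r of 0.04, 0.12 and 0.13 for numbers 1, 2 and 3, and each array correlated best with its own number. The labels name no shared litter or day. The 6 arrays of week 24 alone gave 1716 calls, 1460 of them shared, and detection outside week 24 gave 1839. Fitted differences of genes undetected in a group are neither measured sizes nor bounds, which the at-least folds are, and differences near the top of the scale, such as that of Ucp1, may be understated.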
